A study of Mus musculus with 6 samples.

Results

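The RNA and promoter chromatin of 31 genes for glutamate and GABA-A receptor subunits were followed across nuclei of Foxr2-driven mouse brain lesions. The genes were taken by symbol from a list, among the 32285 mouse genes of the deposited matrices, and all 31 were found. They comprise 4 AMPA receptor genes (Gria1, Gria2, Gria3 and Gria4), 5 kainate receptor genes (Grik1, Grik2, Grik3, Grik4 and Grik5), 6 NMDA receptor genes (Grin1, Grin2a, Grin2b, Grin2c, Grin2d and Grin3a), the delta receptor gene Grid1, 6 metabotropic glutamate receptor genes (Grm2, Grm3, Grm4, Grm5, Grm7 and Grm8) and 9 GABA-A receptor genes (Gabra2, Gabra3, Gabra4, Gabra5, Gabrb1, Gabrb2, Gabrg1, Gabrg3 and Gabrd). The study delivered plasmids into embryonic C57BL/6J mouse brain by in utero electroporation and profiled nuclei of the lesions that formed, which the labels call brain tumor and of which the study describes those of Foxr2 alone as not proliferating, with the 10x Genomics Multiome assay, which reads RNA and open chromatin (ATAC) from the same nucleus. Both groups carried a Foxr2 overexpression plasmid and an Akaluc and GFP reporter, and Foxr2 p53LOF also received a Cas9 guide against Trp53 (p53 loss of function), whereas Foxr2 alone did not. The age of the animals is not in the labels, and no library of unmanipulated brain was analysed here.

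Ionotropic glutamate receptors are cation channels opened by glutamate. AMPA receptors carry fast excitation, NMDA receptors pass calcium when the membrane is depolarized, kainate receptors tune release and excitability, and metabotropic receptors signal through G proteins. GABA-A receptors are chloride channels assembled from alpha, beta and gamma or delta subunits and carry fast inhibition in most adult neurons. Glia use some of these genes too, and OPC (oligodendrocyte precursor cells) are known to receive synaptic input through AMPA and GABA-A receptors.

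Counts were used from 1 library of each genotype, with 96929539 UMIs (distinct RNA molecules) in 10379 barcodes for Foxr2 p53LOF and 59719847 UMIs in 10096 barcodes for Foxr2 alone, of which 8413 and 8327 nuclei were kept. The second Foxr2 alone library entered through its peak list and its 1650 barcodes. The kept nuclei of both libraries shared 95 barcode sequences. With 1 library per genotype there was no test of genotype, and every interval given (exact, 95%) covers counting error in that library only. Foxr2 itself stood in Foxr2 p53LOF at 58.8 CPM in tumor OPC-like, 80.2 in tumor COP-like and 95.6 in tumor astrocyte-like nuclei, against 14.4 in Slc17a6 neurons, and in Foxr2 alone at 2.10 in Slc17a7 neurons and 18.9 in astrocyte-like nuclei, where CPM is UMIs per 1000000 UMIs of a class. COP (committed oligodendrocyte precursors) are the next stage after OPC. A glia cluster was called tumor where the lower bound of the interval for its share of nuclei with ATAC counts on the reporter vector was over 4.35%, which is 3 times the share in immune-like nuclei (1.45%, or 25 of 1724), host where that bound was at or under 1.45%, and intermediate otherwise. No Foxr2 alone cluster was called tumor, because no vector peak is present in that library's peak list.

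Neurons were grouped by transmitter genes. In Foxr2 p53LOF they fell into 1203 Slc17a6 neurons (vesicular glutamate transporter), 648 Gad neurons (GABA synthesis), 136 dopamine neurons and 35 mixed neurons, which enter only the pooled neurons of that library, and in Foxr2 alone into 1402 Slc17a7 neurons and 2827 Gad neurons, the latter holding 2412 striatal and 323 interneuron nuclei. Vector counts in Foxr2 p53LOF stood in 6 Slc17a6 (0.499%), 7 Gad (1.08%) and 0 dopamine nuclei, against 1.45% of immune-like nuclei. Foxr2 RNA in these neuron classes was at 14.4, 8.95 and 9.28 CPM, against 27.6 CPM in immune-like nuclei. The names tumor and host were given to glia only, and how many neurons carried the plasmids was not tested. Tumor glia of Foxr2 p53LOF were 1578 OPC- and COP-like and 366 astrocyte-like nuclei, set beside 97 OPC-like nuclei of the same library, called host here, and 308 astrocyte-like nuclei of Foxr2 alone. Of the host OPC-like nuclei 3 held vector counts (3.09%, interval 0.642 to 8.77), and their GFP and Foxr2 stood at 199 and 36.9 CPM, against 216 and 27.6 CPM in immune-like nuclei of that library. In the astrocyte-like nuclei of Foxr2 alone GFP was at 170 and Foxr2 at 18.9 CPM, against 22.4 and 0 CPM in the immune-like nuclei beside them, so these were not called host, and how many carried the plasmids was not tested. An intermediate astrocyte-like cluster of Foxr2 p53LOF had 143 nuclei, 10 of them with vector counts (6.99%, interval 3.40 to 12.5). Its GFP and Foxr2 stood at 803 and 112 CPM, above the 730 and 95.6 CPM of tumor astrocyte-like nuclei, so it may itself be tumor and is no reference free of the plasmids. The 31 receptor genes, and the related synaptic genes counted further on, were kept out of the variable genes used for clustering. Every difference between classes is given as a description. Values rest on summed counts per class, and fewer nuclei expressing a gene cannot be told apart there from less RNA per nucleus.

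Promoter sequences are shown for 6 members because tumor glia differed from neurons at some of them and not at others. The Gria4, Gabra5, Gabrg3 and Gabrb2 promoters had the lowest ATAC signal in tumor glia relative to neurons, and those of Grik4 and Grik5 were among the 5 within 1.5-fold of neurons. RefSeq starts (build GRCm38.p6) matched 21 of the 31 members, with 28 promoters of 300 bases each, from 250 bases before to 50 bases after the start. The regions are chr9:4796185-4796484 (minus strand) for Gria4, chr7:57510010-57510309 (minus) for Gabra5, chr7:57387166-57387465 (minus) for Gabrg3, chr11:42420190-42420489 (plus) for Gabrb2, chr9:42944322-42944621 (minus) for Grik4 and chr7:25072320-25072619 (minus) for Grik5. Capitals mark a GC box (GGGCGG, or CCGCCC on the other strand) or a TATA box (TATAAA or TTTATA), each read 5′ to 3′ along the gene.
Gria4: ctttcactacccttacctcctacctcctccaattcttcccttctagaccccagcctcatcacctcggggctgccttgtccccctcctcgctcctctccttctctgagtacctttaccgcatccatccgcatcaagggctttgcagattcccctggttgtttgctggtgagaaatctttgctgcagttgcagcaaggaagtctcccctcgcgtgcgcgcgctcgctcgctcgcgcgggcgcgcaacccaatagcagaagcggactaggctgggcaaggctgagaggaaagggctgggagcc
Gabra5: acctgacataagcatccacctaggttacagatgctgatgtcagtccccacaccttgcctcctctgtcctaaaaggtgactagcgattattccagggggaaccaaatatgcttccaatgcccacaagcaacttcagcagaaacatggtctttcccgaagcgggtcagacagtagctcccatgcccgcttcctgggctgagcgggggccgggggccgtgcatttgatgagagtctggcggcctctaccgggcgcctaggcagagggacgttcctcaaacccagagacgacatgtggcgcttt
Gabrg3: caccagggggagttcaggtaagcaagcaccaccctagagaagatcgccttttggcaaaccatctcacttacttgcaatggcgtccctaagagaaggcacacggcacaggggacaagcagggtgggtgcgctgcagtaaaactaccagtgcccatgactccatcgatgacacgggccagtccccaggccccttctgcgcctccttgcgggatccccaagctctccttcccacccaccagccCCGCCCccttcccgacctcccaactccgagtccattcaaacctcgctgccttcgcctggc
Gabrb2: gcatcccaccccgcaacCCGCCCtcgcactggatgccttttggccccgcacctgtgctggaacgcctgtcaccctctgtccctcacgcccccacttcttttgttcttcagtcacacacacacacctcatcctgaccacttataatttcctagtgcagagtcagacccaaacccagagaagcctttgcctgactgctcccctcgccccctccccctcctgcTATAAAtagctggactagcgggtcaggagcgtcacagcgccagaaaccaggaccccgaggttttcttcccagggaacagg
Grik4: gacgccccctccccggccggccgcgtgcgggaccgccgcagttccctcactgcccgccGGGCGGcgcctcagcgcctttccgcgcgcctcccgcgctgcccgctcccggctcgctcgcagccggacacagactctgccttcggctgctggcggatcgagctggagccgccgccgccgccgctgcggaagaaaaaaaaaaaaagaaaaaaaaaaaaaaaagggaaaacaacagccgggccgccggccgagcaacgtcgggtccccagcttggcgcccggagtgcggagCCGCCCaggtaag
Grik5: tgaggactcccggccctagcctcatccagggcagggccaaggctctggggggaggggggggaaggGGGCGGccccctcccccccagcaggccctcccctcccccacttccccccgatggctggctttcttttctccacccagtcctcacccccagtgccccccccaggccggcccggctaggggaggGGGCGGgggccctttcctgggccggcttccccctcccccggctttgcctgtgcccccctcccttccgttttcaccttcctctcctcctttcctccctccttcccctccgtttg

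The GC box stood in 14 of the 28 member promoters, against 35.7% of all 32851 RefSeq promoters of that length. Of the promoters shown, Grik4 and Grik5 held 2 each, Gabrg3 and Gabrb2 held 1 each, and Gria4 and Gabra5 held 0. Of the other matched members within 1.5-fold of neurons, Gabra4 held 2 and Grik2 held 0. Promoters of members lower in tumor glia ran from 0 (Gria2) to 7 (Grik3). The TATA box stood in 3 of 28 (13.6% of all), namely the Gabrb2 promoter shown and both Gabra3 promoters. The Gabra3 windows overlap each other, as do the Grm7 windows that each held a GC box, so these windows share sequence. A forkhead core (TGTTTA or TAAACA), part of the sequence that many forkhead proteins bind, stood in 4 of 28 (13.4% of all) and in none of the 6 shown, but in 1 of the other Gabrb2 promoters, of which RefSeq has 3. CAGCTG, an E-box, and TGACGT or ACGTCA, the core of a cAMP response element, stood in 0 of 28, against 16.3% and 7.51% of all promoters. None of these letter strings contains another, and a match is a description of the letters only. The median GC content was 60.8% for the member promoters and 52.7% for all promoters. Unmatched members were Gria1, Gria3, Grik1, Grin2a, Grin2b, Grin3a, Grid1, Grm4, Grm5 and Gabrd.

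Glutamatergic and Gad neurons of both libraries carried the most receptor RNA, tumor glia carried about as little as the astrocyte-like nuclei of Foxr2 alone, and host OPC and dopamine neurons lay between. Summed over the 31 genes, the level was 15614 CPM in Slc17a6 and 15922 CPM in Gad neurons of Foxr2 p53LOF, and 15785 and 19685 CPM in Slc17a7 and Gad neurons of Foxr2 alone. It was 10344 CPM in dopamine neurons, 10573 CPM in host OPC-like, 3411 CPM in tumor OPC- and COP-like, 3285 CPM in tumor astrocyte-like and 3695 CPM in the astrocyte-like nuclei of Foxr2 alone. Immune-like nuclei, which should lack most of these genes, held 1022 CPM in the Foxr2 p53LOF library and 535 CPM in the Foxr2 alone library, which is given as the background of free RNA. The median nucleus had 9548 UMIs in Slc17a6 neurons, 8316 in tumor OPC- and COP-like, 3374 in host OPC-like and 2389.5 in the astrocyte-like nuclei of Foxr2 alone.

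Between genes, levels were compared as CPM per kb of gene span, since nuclear UMIs include introns. By this measure Gria2, the subunit that keeps AMPA receptors calcium-impermeable, and Grin1, the subunit shared by NMDA receptors, led in every neuron class. Gria2 stood at 15.2 and Grin1 at 16.3 CPM per kb in Slc17a6 neurons, and at 23.9 and 16.5 in Slc17a7 neurons. The measure favours short genes as far as UMIs come from exons, and Grin1 spans 28.0 kb against 694 kb for Grik2. In plain CPM the order differed, with Grin1 at 456 and Grik2 at 1944 CPM in Slc17a6 neurons. In dopamine neurons Gria2 (13.4) was above Grin1 (7.92). Host OPC-like nuclei were led by Gria2 (14.3), followed by Gria4 (4.76), a fast-gating AMPA subunit. Tumor OPC- and COP-like nuclei were led by Gria2 (2.73), Grik5 (1.90), Grm5 (1.56) and Grik2 (1.44), and tumor astrocyte-like nuclei by Gria1 (2.12), Grm5 (2.09) and Grik5 (1.88). Astrocyte-like nuclei of Foxr2 alone had a different order, with Grin2c (6.61), an NMDA subunit typical of astrocytes and cerebellar granule cells, ahead of Gria2 (4.53), Gabrg1 (3.39) and Gabrb1 (2.47).

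**Figure D1:**
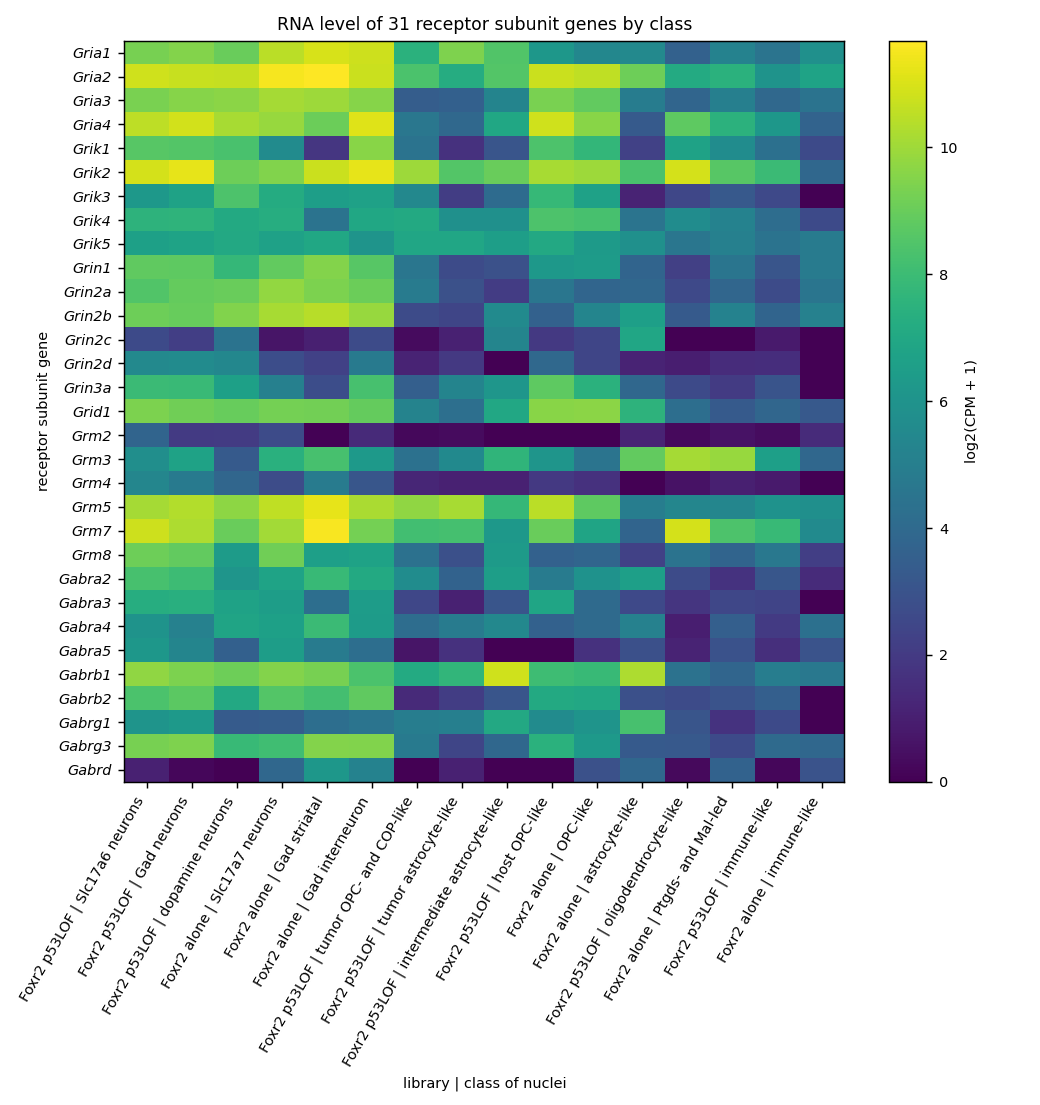
RNA level of the 31 genes as log2(CPM + 1), by class of nuclei (columns, library before the bar) and gene (rows), with each cell 1 class of 1 library. Neuron columns at the left are bright for Gria2, Grik2, Grm5 and Grm7, whereas tumor columns are dark for Gria3, Gria4, Gabrb2 and Grin2b and brighter for Grik2, Grm5 and Grik5.

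Within Foxr2 p53LOF, few genes differed between Slc17a6 and Gad neurons, among the members as among all genes. Of 29 members with at least 10 CPM in either class, 1 was past 2-fold higher in Slc17a6 neurons and 0 were lower, against 1.61% and 0.866% of all genes tested. The member past 2-fold was Grm2, a presynaptic group II receptor that lowers release, at 12.6 CPM (160 UMIs) in Slc17a6 neurons and 2.94 CPM (21 UMIs) in Gad neurons. Its log2 ratio was 1.79 on the log2(CPM + 1) scale, and the interval of the plain ratio ran from 1.44 to 2.83. Much of it came from 1 sub-cluster of 239 nuclei led by Sim1 and Nkx2-1 at 47.6 CPM, since the 5 Slc17a6 sub-clusters had a median of 7.54 CPM, and without that sub-cluster the log2 ratio was 0.92 and 0 members were past 2-fold. Among the genes that both transmitter classes held at a high level, Gria2 stood at 1841 against 1669 CPM, Grik2 at 1944 against 2393 and Grm7 at 1762 against 1217. Gria4 (1487 against 1897 CPM), Grin2b (556 against 496), Grid1 (654 against 575), Gabrb1 (850 against 659) and Gabrg3 (623 against 675) were likewise within 2-fold. Closest to the threshold was Grm3, the other group II receptor, at 52.9 CPM in Slc17a6 and 106 CPM in Gad neurons (log2 ratio -0.98). Grin2c and Gabrd were below 10 CPM in both classes. Sub-clusters differed more than these sums, since Gabrg3 ran from 26.4 to 957 CPM over the 5 Slc17a6 sub-clusters and Grm8 from 18.5 to 568 CPM over the 3 Gad sub-clusters of at least 50 nuclei. The neuron markers summed to 16282 and 17079 CPM.

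Dopamine neurons of the same library, in which the dopamine transporter Slc6a3 was at 892 CPM, had their own levels at several members. Grik3, a low-affinity kainate subunit, was at 340 CPM there, against 74.9 in Slc17a6 and 105 in Gad neurons. Gabra2 was at 67.6 CPM against 311 and 260, and Grm8, a presynaptic group III receptor, at 84.4 CPM against 547 and 471. Gabra4 was at 112 CPM against 63.8 and 34.1. The AMPA gene Gria2 (1626 CPM) and Gria3 (806 CPM) were near the other neurons. Grin2c reached 20.8 CPM, and Gabrd had 0 UMIs, where the floor was 1.33 CPM. Floors for RNA are the level of 3 UMIs in a class and not exact bounds. These members were picked after their values were seen.

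In Foxr2 alone, glutamatergic and Gad neurons differed at more members, and the difference between the libraries was not tested. Slc17a7 neurons, known from cortex, had 4 of 28 tested members past 2-fold higher and 7 lower than Gad neurons, against 7.43% and 7.20% of all genes tested. The 2 neuron classes came from the same library and had neuron marker sums of 10970 and 8379 CPM. The higher members were Grm8, Grik4, Gabra3 and Gabra5. Grm8 stood at 568 CPM in Slc17a7 and 101 CPM in Gad neurons (log2 ratio 2.48, interval 2.42 to 2.57). Grik4, a high-affinity kainate subunit, stood at 156 against 35.6 CPM (2.10, 2.01 to 2.26). Gabra3 was at 88.7 against 27.7 CPM (1.64), and Gabra5, known for extrasynaptic receptors of hippocampal and cortical pyramidal cells, at 88.4 against 28.1 CPM (1.62). These calls are against the pooled Gad class. Over the Gad sub-clusters Grm8 reached 389, Grik4 184, Gabra3 114 and Gabra5 95.2 CPM. Over the Slc17a7 sub-clusters Grm8 ran from 98.6 to 1819 CPM (median 337) and Grik4 from 2.85 to 347 CPM (172). There Gabra3 ran from 27.5 to 155 CPM (84.9) and Gabra5 from 8.55 to 237 CPM (40.8). With interneurons in place of all Gad neurons, 12 of the 25 calls here and between the libraries were lost and 8 were gained.

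The members lower in Slc17a7 neurons were Gabrd, Grm4, Gabrg3, Grik2, Grm7, Grik1 and Gabra4. Gabrd, the delta subunit of extrasynaptic GABA-A receptors, stood at 13.9 CPM in Slc17a7 and 66.7 CPM in Gad neurons (log2 ratio -2.19), and its frequent partner Gabra4 at 98.8 against 227 CPM (-1.19). Grm4, a group III receptor, was at 5.64 against 25 CPM (-1.97), and Gabrg3 at 273 against 722 CPM (-1.40). Kainate receptor genes were split, since Grik2 (704 against 1798 CPM, -1.35) and Grik1 (48.0 against 114 CPM, -1.22) were lower while Grik4 was higher. Against the pooled Gad class all 4 AMPA genes (log2 ratios -0.48 to 0.28) and the 4 NMDA genes tested were within 2-fold. Gria4 stood there at 0.28 and Grin3a at -0.45, but at 0.80 and 2.34 against striatal and -1.24 and -3.18 against interneuron Gad nuclei. In the pooled comparison Gria2 was at 2904 against 3057 CPM, Grin2b at 1149 against 1301 CPM and Grid1 at 600 against 575 CPM. Grm7, at 1081 against 2654 CPM (-1.30), was the only member over 2000 CPM in Gad neurons that was past 2-fold here.

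The Gad neurons of Foxr2 alone were mostly striatal, and 5 members set the striatal nuclei far apart from the interneurons. Grik1, a kainate subunit of interneurons, stood at 2.65 CPM in striatal and 788 CPM in interneuron nuclei. Grin3a, a subunit that lowers the calcium flow of NMDA receptors, stood at 5.80 and 311 CPM, and Gria4 at 531 and 2193 CPM. Grm7 and Gabra4 ran the other way, with Grm7 at 3002 and 597 CPM and Gabra4 at 251 and 84.0 CPM. Over the 10 sub-clusters of at least 50 Gad nuclei, Grik1 ran from 1.33 to 1050 CPM (median 11.4) and Grin3a from 2.22 to 464 CPM (median 17.1), with the highest of both in the same sub-cluster. For all 5 the direction of Slc17a7 against Gad neurons turned on which Gad neurons were used. Against striatal nuclei Grik1 (log2 ratio 3.75), Grin3a (2.34) and Gria4 (0.80) were higher in Slc17a7 neurons, and Grm7 (-1.47) and Gabra4 (-1.34) were lower. Against interneurons Grm7 (0.86) and Gabra4 (0.23) were higher, and Grik1 (-4.01), Grin3a (-3.18) and Gria4 (-1.24) were lower. These 5 members were picked after their values were seen.

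**Figure D2:**
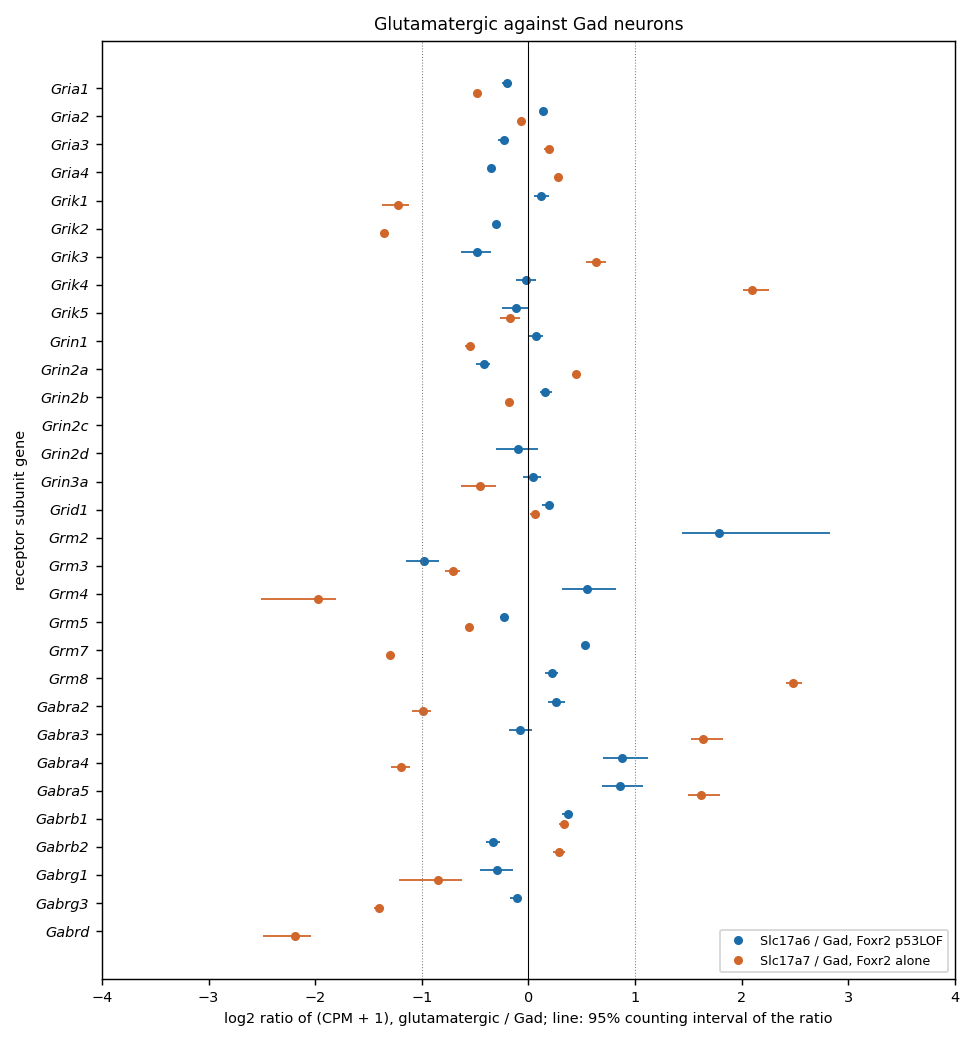
Log2 ratio of (CPM + 1), glutamatergic over Gad neurons, for each tested gene in Foxr2 p53LOF (blue) and Foxr2 alone (orange), with dotted lines at 2-fold and horizontal lines for the counting interval of the plain ratio. Blue points lie between the dotted lines except for Grm2 at 1.79, while orange points reach from -2.19 (Gabrd) to 2.48 (Grm8).

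Gad neurons were then set side by side between the libraries. Of 29 tested members, 8 were past 2-fold higher in Foxr2 p53LOF and 6 lower, against 15% and 20.7% of all genes, and genotype, library and brain region cannot be told apart here. Gabrd had 1 UMI in Gad neurons of Foxr2 p53LOF (0.14 CPM) and 1270 UMIs in those of Foxr2 alone (66.7 CPM), a plain log2 ratio of -8.90 (interval -14.20 to -6.42). Gabra4 was also lower in Foxr2 p53LOF, at 34.1 against 227 CPM (-2.70). The highest ratios were those of Grin2d (48.0 against 6.94 CPM, 2.63), an NMDA subunit of interneurons and of deep brain regions, Gabra3 (163 against 27.7 CPM, 2.52), Grik4 (190 against 35.6 CPM, 2.38) and Grin3a (243 against 46.0 CPM, 2.37). Grm8 (471 against 101 CPM, 2.21) and Gabrg1 (79.3 against 18.4 CPM, 2.05) completed the largest 8. Of the members over 1000 CPM in either class, Gria2 (1669 against 3057 CPM), Grik2 (2393 against 1798) and Grm5 (1289 against 2267) were within 2-fold. Gria1 (721 against 1979 CPM, -1.46), Grin2b (496 against 1301 CPM, -1.39) and Grm7 (1217 against 2654 CPM, -1.12) were past 2-fold lower and Gria4 (1897 against 762 CPM, 1.32) higher, and Grid1 stood at 575 CPM in both.

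The type of Gad neuron compared moved these values. Against the 323 interneuron nuclei of Foxr2 alone, 9 members were past 2-fold in place of 14, and Gria4 (log2 ratio 1.32 against all Gad neurons, -0.21 against interneurons), Grik1 (1.71, -1.08), Grin3a (2.37, -0.36), Grm3 (-1.37, 0.40) and Grm7 (-1.12, 1.03) changed sign. The neuron markers summed to 17079 CPM in Gad neurons of Foxr2 p53LOF and 8379 CPM in those of Foxr2 alone, and their part in the result was not tested.

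Tumor glia held less receptor RNA than the neurons of the same library at most members. Of 28 tested members, 0 were past 2-fold higher in tumor glia and 25 were lower, against 27.0% and 17.2% of all genes tested, and the median log2 ratio was -3.83 for the members and 0.37 for all genes. The lowest were Gabrb2, the beta subunit of most adult GABA-A receptors (1.95 CPM in tumor glia, 342 CPM in neurons, log2 ratio -6.86), and Grin2b, an NMDA subunit of young neurons (5.23 against 552 CPM, -6.47). Gria4 (22.2 against 1589 CPM, -6.10) and Gria3 (9.99 against 713 CPM, -6.02) followed. Gabra3 (4.0 against 153 CPM, -4.95), Gabra5 (0.871 against 53.8 CPM, -4.87), Grm8 (16.8 against 485 CPM, -4.77) and Gabrg3 (22.2 against 600 CPM, -4.69) made up the 8 largest. In the other families, Gria2 stood at 298 against 1764 CPM (-2.56), Grid1 at 32.8 against 617 CPM (-4.19), Gabrb1 at 151 against 756 CPM (-2.32) and Grik2 at 884 against 1943 CPM (-1.14).

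The tested members within 2-fold of neurons in the pooled tumor glia were Grik5, Grm5 and Grik4. Grik5, a kainate subunit that works together with others, stood at 118 CPM in tumor glia and 105 CPM in neurons (log2 ratio 0.17, interval 0.09 to 0.25). Grm5, a group I receptor that releases calcium from stores, stood at 914 and 1125 CPM (-0.30, -0.33 to -0.27), and Grik4 at 120 and 184 CPM (-0.61). The Grm5 value rested on 1 sub-cluster of 475 nuclei led by Dbx2 and Egfr, at 2549 CPM, and without it the log2 ratio was -1.23, past 2-fold lower, while Grik5 stood at 0.15 and Grik4 at -0.72. Immune-like nuclei of the library had 20.9 CPM of Grik5, 61.2 CPM of Grm5 and 17 CPM of Grik4. The pooled levels lay above that background, but in the largest tumor sub-cluster, of 658 nuclei named COP-like, Grm5 was at 63.5 CPM. The next smallest differences among tested members were those of Gabrg1 (-1.08), Grik2 (-1.14), Gria1 (-1.27), Grm3 (-1.38), Gabra4 (-1.55) and Grik3 (-1.62). Neuron markers summed to 753 CPM in tumor glia and 17612 CPM in neurons, with all 8 markers detected.

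Related synaptic genes were counted as a list of 32. In tumor glia 3 of 31 tested were past 2-fold higher than in neurons and 15 lower, against 27.0% and 17.2% of all genes, with a median log2 ratio of -0.93. Lowest were the AMPA receptor partners Cacng2 (0.973 against 115 CPM) and Shisa6 (1.08 against 117 CPM), and highest were Homer3 (21.0 against 1.38 CPM), a scaffold that binds group I metabotropic receptors, and Cacng5 (89.4 against 12.4 CPM), an AMPA receptor partner.

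Against host OPC-like nuclei of the same library, tumor OPC- and COP-like nuclei had lower levels of 3 of 4 AMPA, 3 of 5 kainate, 3 of 5 tested NMDA and 3 of 7 tested GABA-A receptor genes. Of 26 tested members, 1 was past 2-fold higher in the tumor nuclei and 14 lower, against 23.4% and 13.5% of all genes tested, and the median log2 ratio was -1.50 for members and 0.33 for all genes. Gria4 stood at 23.9 CPM in tumor (interval 21.6 to 26.5) and 1801 CPM in host nuclei, a log2 ratio of -6.18 (interval of the plain ratio -6.42 to -6.05). Gria3 stood at 9.74 against 650 CPM (-5.92), Gabrb2 at 1.63 against 136 CPM (-5.70) and Grin3a at 10.5 against 443 CPM (-5.27). Grid1, which bridges synapses through cerebellins, was at 36.1 against 784 CPM (-4.40). Gabra3 (4.65 against 116 CPM, -4.38) and Grik1 (20.5 against 344 CPM, -4.00) followed, and Gria2 was at 332 against 1738 CPM (-2.39). Also lower were Gabrg3 (-2.70), Grik3 (-2.40), Grm3 (-1.77), Grin1 (-1.65) and Grik4 (-1.34), and Grin2d, which rested on 5 host UMIs.

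Grik2 and Grik5 were close to host OPC, and Grm5 was within 2-fold in the pooled class. Grik2 was at 998 CPM in tumor and 1125 CPM in host nuclei (log2 ratio -0.17), Grik5 at 119 and 131 CPM (-0.14), and Grm5 at 860 and 1411 CPM (-0.71), against 250, 20.9 and 61.2 CPM in immune-like nuclei. Grm7 was at 284 and 517 CPM (-0.86), but the tumor value stood near the 231 CPM of immune-like nuclei. In the 738 tumor OPC-like nuclei alone, without the 840 COP-like nuclei, Grm5 was at 0.54 and Grm7 at -1.79, and 4 members were higher and 15 lower. Those 738 include the 475 nuclei led by Dbx2 and Egfr, of which 372 lay in clusters named astrocyte when both libraries were clustered together. The OPC marker Cspg4 was at 2.26 to 22.6 CPM in their sub-clusters, against 540 CPM in host nuclei. In the pooled class without the 475 nuclei led by Dbx2 and Egfr, Grm5 was at -2.35, Gabrb1 at -2.50 and Gabrg1 at -1.44, all past 2-fold lower. There 0 members were higher and 17 lower. Gabrb1 was at 139 and 264 CPM (-0.92). The member that was higher was Gria1, at 174 against 71.0 CPM (1.28), and it rested on 25 host UMIs and on the same sub-cluster, without which its log2 ratio was -0.27. The host class held 97 nuclei and 352121 UMIs, so the floor given for 0 UMIs, the level of 3 UMIs, was 8.52 CPM there. Against the 169 OPC-like nuclei of Foxr2 alone in place of the host nuclei, Gria4 stood at -4.96 and Gria3 at -5.45, and 3 members were higher and 14 lower. Those 169 nuclei had GFP at 98.3 and Foxr2 at 8.74 CPM, against 22.4 and 0 CPM in immune-like nuclei of Foxr2 alone. How many of them carried the plasmids was not tested. Neuron markers summed to 858 CPM in tumor and 716 CPM in host nuclei.

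The tumor OPC- and COP-like sub-clusters were themselves unlike at some members. Over the 5 sub-clusters of at least 50 nuclei, Grm5 ran from 63.5 to 2549 CPM (median 540), Gria1 from 8.80 to 509 CPM (median 85.4) and Gabrb1 from 11.2 to 408 CPM (median 87.5), each with its highest level in the sub-cluster led by Dbx2 and Egfr. That sub-cluster was named OPC-like among the glia of its library, but 372 of its 475 nuclei (78.3%) lay in clusters named astrocyte when both libraries were clustered together, as did 120 of 129 nuclei of a cycling OPC-like sub-cluster. In the sub-cluster led by Dbx2 and Egfr the astrocyte markers summed to 2079 CPM, against 1275 CPM in host OPC-like and 5377 CPM in tumor astrocyte-like nuclei, and the OPC markers to 7270 CPM, against 14424 and 4760 CPM. The OPC marker Cspg4 was at 4.88 CPM in it and 540 CPM in host OPC-like nuclei. The sub-cluster of 658 nuclei named COP-like had COP markers at 3186 CPM in sum, near the 2925 CPM of host OPC-like nuclei and below the 10415 CPM of the other COP-like sub-cluster (182 nuclei), and none of those markers was among its 10 leading genes. Grm7 ran from 120 to 844 CPM and Gria2 from 175 to 993 CPM. By contrast Grik5 ran from 100 to 128 CPM, and Gria4 did not exceed 85.6 CPM in any sub-cluster. The lowest Grm5 and Gabrb1 levels were both in the sub-cluster of 658 nuclei, which had the highest Gabrg3 (49.5 CPM) and Grik3 (70.3 CPM).

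Of the related list, 4 of 27 tested were past 2-fold higher and 10 lower in tumor OPC- and COP-like nuclei, against 23.4% and 13.5% of all genes. The lowest were Shisa6 (0.691 against 85.2 CPM) and the scaffold Dlgap1 (71.2 against 1650 CPM). Dlgap2, a relative of Dlgap1, was higher (255 against 34.1 CPM), as was Cnih3, which had 17.9 CPM in tumor and 0 UMIs in host nuclei, where the floor was 8.52 CPM.

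Tumor astrocyte-like nuclei differed from the astrocyte-like nuclei of Foxr2 alone in both directions. Of 21 tested members, 6 were past 2-fold higher and 12 lower, against 22.3% and 26.7% of all genes tested, with a median log2 ratio of -1.11 for members and -0.09 for all genes. Tumor state, genotype, library and brain region cannot be told apart here, and some nuclei of the comparison class may carry Foxr2 themselves. Grm5 stood at 1151 CPM in tumor nuclei (1116 to 1186) and 30.2 CPM in those of Foxr2 alone (19.3 to 44.9), a log2 ratio of 5.21, and Gria1 at 675 against 44.0 CPM (3.91). Immune-like nuclei of the tumor library had 61.2 CPM of Grm5 and 21.2 CPM of Gria1. Grm7 stood at 304 against 12.6 CPM (4.49), but immune-like nuclei had 231 CPM of it in the tumor library and 46.6 CPM in the other, and the part of that background in the ratio was not tested. Grin3a (1.40), Grik4 (1.36) and Grik5 (1.04) were the other members past 2-fold higher. Against the intermediate astrocyte-like cluster of the same library, which had as much GFP and Foxr2 RNA as the tumor nuclei, Grm5 (2.40) and Grm7 (2.02) were past 2-fold higher, Gria1 stood at 0.88, Grik5 at 0.36, Grik4 at -0.02 and Grin3a at -0.84. Grik2 was at 381 against 323 CPM (0.24).

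The lower members included several genes known from astrocytes, picked after their values were seen, although Grm5, which astrocytes also use, was the highest member. Grin2c stood at 1.11 CPM in tumor astrocyte-like nuclei (4 UMIs) and 119 CPM in the astrocyte-like nuclei of Foxr2 alone (95 UMIs), a log2 ratio of -5.83. Grm3, the main metabotropic glutamate receptor of adult astrocytes, was at 46.1 against 475 CPM (-3.34), and Gabrg1, a gamma subunit rich in astrocytes, at 31.7 against 311 CPM (-3.25). Gabrb1 (204 against 1215 CPM, -2.57) and Gabra2 (11.9 against 96.8 CPM, -2.92) were lower as well. Grin2b (4.44 against 94.3 CPM, -4.13) and Grid1 (18.1 against 184 CPM, -3.28) were lower, and Gria2 was at 151 against 549 CPM (-1.86). The remaining lower members, Gabrd, Gria3, Grin1 and Grin2a, had at most 28.9 CPM in the nuclei of Foxr2 alone, and the intervals of Grin1 (-2.43 to 0.02) and Grin2a (-2.21 to 0.07) include 0.

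The neuron markers summed to 812 CPM in the astrocyte-like nuclei of Foxr2 alone and 289 CPM in the tumor astrocyte-like nuclei, against 677 and 357 CPM in the immune-like nuclei of the same libraries. Immune-like nuclei of Foxr2 alone had 27.6 CPM of Grin1 and 22.4 CPM of Grin2a, above the 12.6 and 13.8 CPM of the astrocyte-like nuclei there, and 34.5 CPM of Grin2b, against 94.3 CPM. They also had 55.2 CPM of Grm5 and 57.0 CPM of Gria1, above the astrocyte-like levels. The part of this background in the ratios was not tested. A further 125 astrocyte-like nuclei with neuron markers were left out, a limit set after the data were seen, and with them the count was 4 higher and 19 lower and Grm7 stood at -0.13. The intermediate astrocyte-like cluster of Foxr2 p53LOF, with GFP at 803 and Foxr2 at 112 CPM, had Grm5 at 218 CPM, Gria1 at 365 CPM, Grm3 at 196 CPM, Gabrb1 at 1806 CPM and Gabrg1 at 133 CPM. For Grm5, Gria1, Grm3 and Gabrg1 those levels lay between the tumor astrocyte-like nuclei and those of Foxr2 alone, and Grm7 was at 74.3 CPM. Of the related list, 13 of 26 tested were higher and 6 lower, against 22.3% and 26.7% of all genes, led by Neto2 (388 against 49.0 CPM), a kainate receptor partner, and by Cacng5, which had 79.5 CPM in tumor nuclei and 0 UMIs in those of Foxr2 alone, where the floor was 3.77 CPM. Lowest were Cnih2 (2.50 against 45.3 CPM) and Cacng2 (1.67 against 11.3 CPM), both AMPA receptor partners.

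**Figure D3:**
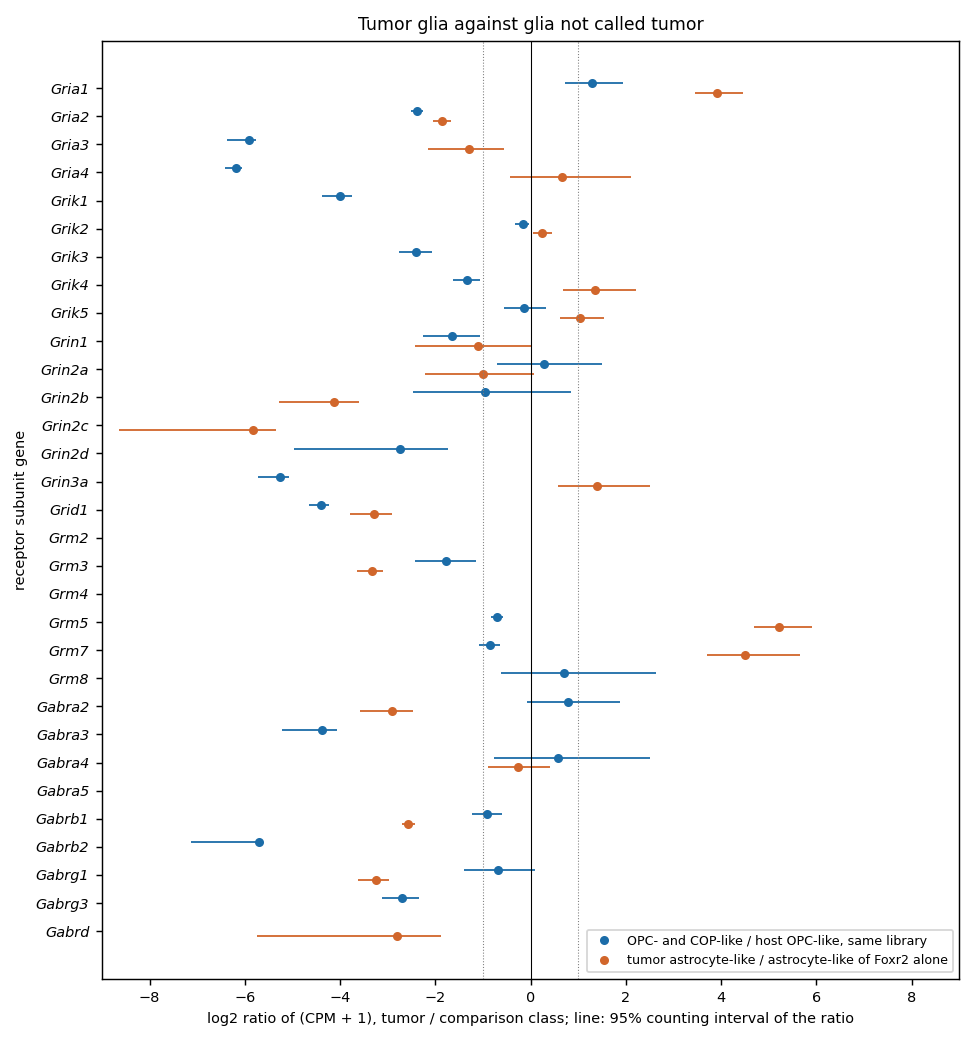
Log2 ratio of (CPM + 1), tumor glia over glia not called tumor, for each tested gene in OPC- and COP-like nuclei (blue, over host OPC-like nuclei of the same library) and astrocyte-like nuclei (orange, over astrocyte-like nuclei of Foxr2 alone), with dotted lines at 2-fold and horizontal lines for the counting interval of the plain ratio. Blue points for Gria3, Gria4, Gabrb2 and Grin3a lie below -5, and orange points for Grm5, Grm7 and Gria1 lie above 3.

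Oligodendrocyte-like nuclei of Foxr2 p53LOF had 14 of 31 members at 10 CPM or more, against 17 in immune-like nuclei of that library. In the oligodendrocyte-like nuclei Grik2 and Grm7 were near the neuronal level and Grm3 was above its 64.7 CPM in neurons. Grik2 stood at 1975 CPM (interval 1932 to 2018), Grm7 at 1922 CPM and Grm3 at 1113 CPM, with Gria4 at 440 CPM and Grik1 at 106 CPM. In immune-like nuclei of the same library these genes were at 250, 231, 96.0, 70.6 and 18.6 CPM in the same order. Gabrb2, Gabrg3 and Grin2b were under the immune-like level. In Foxr2 alone a class of 3022 nuclei led by Ptgds and Mal, which the marker rule left unnamed, had Grm3 at 943 CPM, Grik2 at 396 CPM and Grm7 at 341 CPM, with 1171.5 UMIs in its median nucleus. Its best match was oligodendrocyte (median marker log2 ratio 5.79, against 0.36 for neuron, the next type outside glia). The name was withheld for low depth with no such marker among its leading genes.

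Promoter chromatin was read as ATAC counts in peaks within 1000 bases of an annotated start, given as ATAC CPM (counts per 1000000 counts in peaks). A promoter peak was present for 30 of 31 members in Foxr2 p53LOF, 30 in the first and 29 in the second Foxr2 alone library, against 69.6%, 67.7% and 67.2% of all genes. Grin2c had none in any library, and Grm8 had none in the second Foxr2 alone library. Of 30 members tested in tumor glia against neurons, 0 were past 1.5-fold higher and 25 were lower, against 13.5% and 18.5% of all genes tested.

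The Gria4, Gabrb2, Gabra5 and Gabrg3 promoters, for which a sequence is printed above, were the lowest of this range. Counts come from peaks near any annotated start of a gene, and whether those peaks overlap the printed windows was not tested. Gria4 had 17 counts in tumor glia and 524 in neurons (0.709 and 30.8 ATAC CPM, log2 ratio -5.44, interval -6.62 to -4.47). Gabrb2 stood at 0.959 and 40.0 ATAC CPM (-5.38), Gabra5 at 0.50 and 19.1 (-5.26) and Gabrg3 at 0.584 and 20.9 (-5.16). Those genes were the ones with a drop below -5 at the promoter, and their RNA log2 ratios were -6.10, -6.86, -4.87 and -4.69. These RNA ratios are of CPM + 1, while the promoter ratios are plain. As plain ratios the RNA values were -6.16, -7.46, -5.95 and -4.75. The 5 promoters within 1.5-fold were those of Gabrd, Grik4, Grik2, Grik5 and Gabra4. The Grik4 promoter stood at 61.4 and 55.6 ATAC CPM (0.14, -0.03 to 0.31), that of Grik2 at 37.5 and 39.1 (-0.06) and that of Grik5 at 26.5 and 35.9 (-0.44). Gabra4 stood at -0.55 and Gabrd at 0.52, the latter on 98 counts in neurons. The Gabra4 and Gabrb1 starts lie on opposite strands of chromosome 5, at 71658308 and 71658113 (mm10), so a peak there counts for both. Gabrb1, with 2 peaks, stood at -1.36. Gabra5 and Gabrg3 lie next to each other on chromosome 7, at 57407672 to 57510059 and 56716465 to 57387188 (mm10).

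Promoter and RNA differences were not of equal size. Grm5 RNA was within 2-fold of neurons in the pooled tumor glia (-0.30, or -1.23 without the Dbx2- and Egfr-led sub-cluster) while its promoter was lower (10.5 against 25.9 ATAC CPM, -1.29). Grin2b had a promoter log2 ratio of -2.55 and an RNA log2 ratio of -6.47, and Grin1, at -1.21 and -4.37, showed the same kind of gap. As plain ratios, like those of the promoters, the RNA values were -6.72 and -4.44. Host OPC-like nuclei had 32.9 ATAC CPM at the Gria4 promoter, 36.0 at Gabrb2 and 15.6 at Gabrg3, the last on 10 counts (interval 5.08 to 36.5), while tumor OPC- and COP-like nuclei had 0.784, 1.13 and 0.686. At Gabra5 the host OPC-like nuclei had 0 counts, which allows up to 11.5 ATAC CPM, and the tumor nuclei 0.539. Astrocyte-like nuclei of Foxr2 alone had 0.901 at Gria4 and 1.80 at Gabrb2, but 13.5 at Gabrg3, where the tumor astrocyte-like nuclei had 0, which allows up to 2.06. Oligodendrocyte-like nuclei had 37.5 ATAC CPM at Grm3 and 25.3 at Grm7, against 4.0 and 2.37 in immune-like nuclei.

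**Figure D4:**
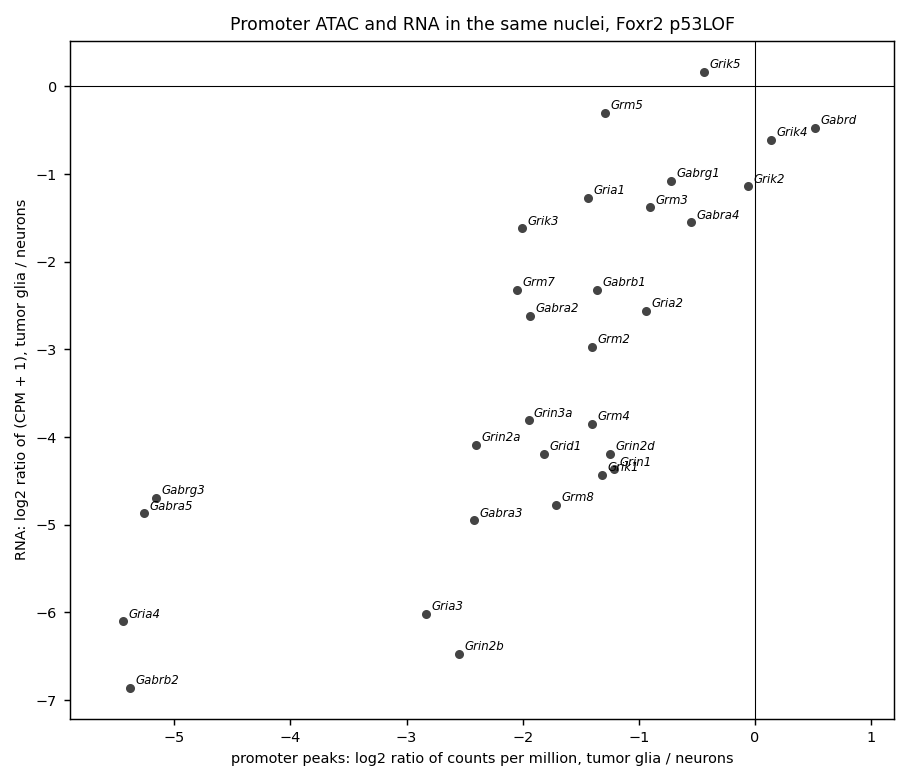
RNA log2 ratio (vertical) against promoter peak log2 ratio (horizontal), tumor glia over neurons in Foxr2 p53LOF, with a point for each of the 30 genes that have a promoter peak. Gria4, Gabrb2, Gabra5 and Gabrg3 stand apart at the left below -5, and Grik5, Grik4, Grik2 and Gabrd lie at the right.

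Between neuron classes, the share of member promoters past 1.5-fold was near that of all genes. In Foxr2 p53LOF the count was 1 of 30 higher in Slc17a6 than in Gad neurons and 0 lower, against 2.70% and 2.65% of all genes, and that member was Gabra4 (14.8 against 8.34 ATAC CPM, log2 ratio 0.83), which rested on 46 counts in Gad neurons. The Gabra4 start lies close to that of Gabrb1 on the other strand, so a peak there counts for both genes. Gabrb1 stood at 0.18. In Foxr2 alone, 4 of 30 were higher in Slc17a7 neurons (Grin3a 0.83, Grm2 0.87, Grm8 0.85 and Gabra3 0.60) and 3 lower (Grm4 -0.74, Gabra2 -0.78 and Gabrd -0.59), against 10.2% and 7.56% of all genes. For Grm8, Gabra3, Grm4 and Gabrd the promoter and the RNA were past their thresholds in the same direction. When promoters were counted as nuclei with a count, Grm8 (0.99) and Gabra3 (0.85) stayed past 1.5-fold, while Grm4 (-0.45), Gabrd (-0.43) and Gabra2 (-0.49) did not. Grik2 RNA was lower in Slc17a7 neurons (-1.35) with its promoter at 0.27. Grin3a RNA was at -0.45 with its promoter higher, but against striatal Gad nuclei alone its RNA was higher too, as given above. Striatal nuclei were 2412 of the 2827 Gad nuclei, and promoters were compared with the pooled Gad class only.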

How the data were processed

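Nuclei were profiled by 10x Multiome in 3 libraries, of which 2 entered with counts. The authors aligned reads with Cell Ranger ARC 2.0.0 to mm10 with the vector sequences added, and deposited unnormalized counts, as UMIs per gene and ATAC counts per peak called in each library. An ATAC fragment gives 2 counts, so promoter intervals use fragments. Nuclei with at least 400 genes, 400 fragments and at most 5% mitochondrial UMIs, under the upper limits of the study's methods, were kept after removal of Scrublet doublets (3.43% and 5.97%). Clusters (scanpy 1.11.5, Leiden resolution 0.5) were named from marker lists. Cluster rules set after seeing the data left out 125 astrocyte-like nuclei with neuron markers and 144 neuron-like nuclei whose leading genes went against their name. A further 813 nuclei of Foxr2 p53LOF stayed unassigned. Of these 126 (15.5%) held vector counts, and their GFP was at 567 CPM in sum, so some tumor nuclei may lie outside the tumor classes.

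UMIs were summed per class. A gene was tested with at least 10 CPM in either class and called at 2-fold on the log2(CPM + 1) scale, and promoters at 1.5-fold with at least 50 counts. Grik2 and Grin3a overlap other genes on the same strand, so some of their UMIs may belong to those. The members and lists were chosen with earlier results of these data known. Members past 2-fold (up to 8 by size) and the highest-CPM member of each family were named, and others only where said. Alternatives were other doublet, gene, pseudocount and CPM limits, thinned depth, other classes and other promoter windows.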

Additional observations from a re-analysis of the deposited data

Results flagged for a closer look

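Several members had opposite signs in the same contrast made in different classes, and the difference between the contrasts was not tested. Tumor glia against glia not called tumor gave log2 ratios of -1.34 in OPC- and COP-like and 1.36 in astrocyte-like nuclei for Grik4, -5.27 and 1.40 for Grin3a, -0.71 and 5.21 for Grm5 and -0.86 and 4.49 for Grm7. The first comparison class came from Foxr2 p53LOF and the second from Foxr2 alone. The tumor class of the first pools 738 OPC-like and 840 COP-like nuclei. Among its sub-clusters Grm5 ran from 63.5 to 2549 CPM, and with the OPC-like nuclei alone its log2 ratio was 0.54, so the Grm5 sign is that of the pooled class. Those OPC-like nuclei include the 475 led by Dbx2 and Egfr, of which 372 lay in clusters named astrocyte in the joint clustering. Immune-like nuclei of the tumor library held 231 CPM of Grm7, near its 284 and 304 CPM in the tumor classes. Against the intermediate astrocyte-like cluster of the same library Grik4 stood at -0.02 and Grin3a at -0.84, but that cluster had GFP at 803 and Foxr2 at 112 CPM, against 730 and 95.6 CPM in the tumor astrocyte-like nuclei, so tumor may be compared with tumor there.

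Glutamatergic against Gad neurons gave 0.55 in Foxr2 p53LOF and -1.97 in Foxr2 alone for Grm4, 0.53 and -1.30 for Grm7, 0.88 and -1.19 for Gabra4 and 0.88 and -2.19 for Gabrd. The Gabrd value in Foxr2 p53LOF rested on 14 and 1 UMIs, below the limit of 10 CPM. The glutamatergic neurons were of different kinds, Slc17a6 in the first library and Slc17a7 in the second.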

How the results depend on the processing

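No paired analysis was possible because the groups share only replicate number 1 among the libraries with counts. Over the alternatives 85 values of single members changed sign, 16 of them past the threshold in the main comparison and 69 not. Counts past the threshold, both directions together, stayed within 1.5 times in all comparisons and alternatives except 3. Slc17a6 against Gad neurons gave 2 in place of 1 with nuclei thinned to 1000 UMIs and 0 without the Sim1- and Nkx2-1-led cluster, and Gad neurons between libraries gave 9 in place of 14 against interneurons. By direction, tumor against host OPC-like nuclei had 1 higher, but 2 with doublets kept or nuclei thinned, 3 against the OPC-like nuclei of Foxr2 alone, 4 with tumor OPC-like nuclei alone and 0 without the Dbx2- and Egfr-led cluster. In tumor astrocyte-like nuclei the 12 lower became 19 with neuron-marked clusters, and the 6 higher became 2 against the intermediate cluster. Counting promoters per nucleus turned the 3 lower of Slc17a7 against Gad neurons into 0 and the 0 higher of tumor glia against neurons into 1. Alternatives that swap a class or a cluster were chosen after seeing the data.

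Among members past the threshold in the main comparison, the sign changes in Slc17a7 against Gad neurons were Grik1 (3.75, striatal nuclei), Grm7 (0.86) and Gabra4 (0.23, both interneurons). Between libraries, against interneurons, they were Gria4 (-0.21), Grik1 (-1.08), Grin3a (-0.36), Grm3 (0.40) and Grm7 (1.03). In tumor against host OPC-like nuclei they were Grin2d (0.71, thinned) and Gria1 (-0.27, without the Dbx2- and Egfr-led cluster). In tumor astrocyte-like nuclei against those of Foxr2 alone they were Grin1 (0.15, thinned) and Grm7 (-0.13, with neuron-marked clusters). Against the intermediate cluster they were Grik4 (-0.02), Grin2a (0.80), Grin3a (-0.84) and Gabrd (1.08). Of members not past the threshold, Grin3a in Slc17a7 against Gad neurons turned to 2.34 against striatal nuclei and Gria4 to -1.24 against interneurons. The cause of these changes was not tested.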
